A study of Mus musculus with 8 samples.

Results

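The renin-angiotensin system of mouse kidney cortex was described from 8 listed gene symbols: Ren1, Agt, Ace, Agtr1a, Agtr1b, Mme, Enpep and Mas1. They were looked up by symbol among the 21705 rows of the deposited expression table, and 7 of the 8 had a row. No row for Ren1 was analysed here, and a row named Ren2 is given in its place below, with its limits. Of the 7, 6 passed the filter on low values (10 or more on average across all libraries), and Agtr1b did not. The study compared RNA from kidney cortex of mice labelled Sav1-/- that had received tamoxifen (4 libraries, called Sav1-null here) with that of mice labelled Sav1+/+ that had received vehicle (4 libraries, called wild-type). Both groups were of a mixed background strain. The labels give no age and no sex, and they do not name the Cre driver or the cells in which Sav1, the scaffold gene of the Hippo pathway, was removed. Nothing in them says that each library is a different animal, so the p-values reflect library-to-library spread, part of which may be technical.

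In this system renin, an aspartyl protease that juxtaglomerular cells of the afferent arteriole release, cuts angiotensin I from angiotensinogen. Angiotensin converting enzyme trims angiotensin I to angiotensin II, which acts through the type 1 receptor to raise vascular tone, sodium reabsorption and aldosterone. Other peptidases, many of them on the brush border of the proximal tubule, break angiotensin peptides down or turn them into angiotensin-(1-7), for which the Mas receptor has been described. The kidney holds every step of the cascade, with angiotensinogen and the peptidases made largely in the proximal tubule.

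Some facts of the whole series bear on all values below. Each library held about 15700000 to 20900000 reads in the Sav1-null group and 20500000 to 25000000 in the wild-type group, estimated from the value of 1 read. Sav1 itself was at 898 ± 127 in Sav1-null and 1350 ± 345 in wild-type libraries (SD, n = 4 each), a log2 fold change of -0.56 (limma adjusted p = 0.0220) that missed the threshold without wild-type replicate 1 (adjusted p = 0.0611) or 2 (0.0570) and with equal library totals (0.375). The part of Sav1 that was deleted is not stated in the labels. Xist averaged 12229 ± 2922 in Sav1-null libraries and 0.247 ± 0.494 in wild-type libraries, while Eif2s3y, a Y-linked gene, was at 0 in all Sav1-null libraries and at 1205 ± 88.6 in the wild-type libraries. Genotype, treatment and sex-chromosome transcripts thus divided the libraries in the same way and cannot be told apart for any gene below. Of 13677 genes tested with limma, 69.1% were called at an adjusted p under 0.05, and 43.9% were higher in Sav1-null libraries and 25.2% were lower. The groups did not overlap for 65.2% of tested genes. Against that background a call for a single member is common.

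The renin row was 18.1-fold lower in the Sav1-null cortex. Values of Ren2 were 105, 104, 100 and 33.5 in the Sav1-null libraries, against 1676, 986, 1556 and 1595 in the wild-type libraries. The groups did not overlap. Sav1-null replicate 4 lay far below the other libraries of its group, and wild-type replicate 2 was the lowest of its own. The log2 fold change was -4.18 ± 0.36 (SE, limma adjusted p = 9.82e-06), and it lay between -4.53 and -3.78 in all 17 alternatives tried. Ren2 is the duplicated renin gene that some mouse strains carry beside Ren1. The GENCODE M21 annotation of GRCm38 used here for transcript lengths holds a gene named Ren1 and none named Ren2, so whether this row collected reads of Ren1, of Ren2 or of both cannot be told apart. Because the cortex was sequenced in bulk, fewer cells of a type and less RNA per cell cannot be told apart either, for this row or for any other.

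Gja5 and Akr1b7, known from renin cells, were low beside it. Gja5 was picked after its values were seen. Akr1b7 was named from the adrenal cortex list and was placed here as a renin cell gene outside the naming rule given below. Both belong to a list of 17 tested renin cell and renin release genes. Of these 7 (41.2%) were higher and 4 (23.5%) lower, near the 43.9% and 25.2% of all tested genes. Gja5 encodes connexin 40, the gap junction protein of renin cells and arteriolar endothelium. Its values were 18.0, 19.6, 26.9 and 2.95 in the Sav1-null libraries, against 73.5, 48.6, 70.8 and 48.5 in the wild-type libraries (log2 fold change -2.06, limma adjusted p = 0.00822). Akr1b7, an aldo-keto reductase gene that marks renin cells in the mouse, was at 15.6, 22.5, 23.7 and 0.984 in the Sav1-null libraries, against 65.3, 36.9, 40.2 and 53.6 in the wild-type libraries. Without Sav1-null replicate 4 the Gja5 value was -1.44 (adjusted p = 0.000626). Akr1b7 had a log2 fold change of -2.05 (limma adjusted p = 0.0318), and it no longer passed when wild-type replicate 1, 3 or 4 was left out (adjusted p = 0.0760, 0.0539 and 0.0674; -1.20 without Sav1-null replicate 4, adjusted p = 0.00312) and with equal library totals (0.0569). For both genes the groups did not overlap, and Sav1-null replicate 4 was again the lowest library, with 3 reads of Gja5 and 1 of Akr1b7.

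Agt, which encodes the substrate angiotensinogen, did not pass the test. It was at 1025, 1062, 1078 and 888 in the Sav1-null libraries, against 995, 1030, 1024 and 985 in the wild-type libraries. The groups overlapped, and the wild-type libraries spanned less than the Sav1-null ones. Its log2 difference was 0.00 ± 0.08 (SE, limma adjusted p = 0.975). This value moved with the scaling of the libraries, and the direction turned: median-of-ratios rescaling gave -0.22 (limma adjusted p = 0.0248), quantile normalization -0.05 (0.595) and equal library totals 0.39 (0.000859). Over all tested genes the median difference was 0.23 on the log2 scale as deposited, and these scalings moved it by -0.23, -0.26 and 0.39. Relative to that median Agt lay at -0.23 as deposited and under both the median-of-ratios and the equal-totals scaling, and at -0.02 under the quantile one.

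The promoter of Agt is shown because Stat3, named in the title of the series, binds motifs of the form TTCNNNGAA, and Agt is known as a gene of the acute phase in liver. Stat3 was 2.76-fold higher in the Sav1-null libraries (5379 ± 226 against 1950 ± 193 in wild-type, SD, n = 4 each; limma adjusted p = 1.31e-06). The window runs from 250 bases before to 50 bases after the annotated start (RefSeq, GRCm38.p6, chr8:124569657-124569956, minus strand). Capitals mark a match to the STAT motif at -172 to -164 and the letters TATAAA, the core of a TATA box, at -30 to -25, counted from the start.
Agt promoter: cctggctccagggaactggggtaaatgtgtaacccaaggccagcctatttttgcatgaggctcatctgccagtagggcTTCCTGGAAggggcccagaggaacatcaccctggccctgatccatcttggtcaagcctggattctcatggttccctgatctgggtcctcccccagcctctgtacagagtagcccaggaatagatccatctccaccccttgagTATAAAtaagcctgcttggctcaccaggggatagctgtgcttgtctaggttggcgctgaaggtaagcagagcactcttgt
Among 32851 windows of the same length, 8.30% held TTCNNNGAA and 13.6% held TATAAA on either strand. A match is a string of letters and no measured site.

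**Figure D1:**
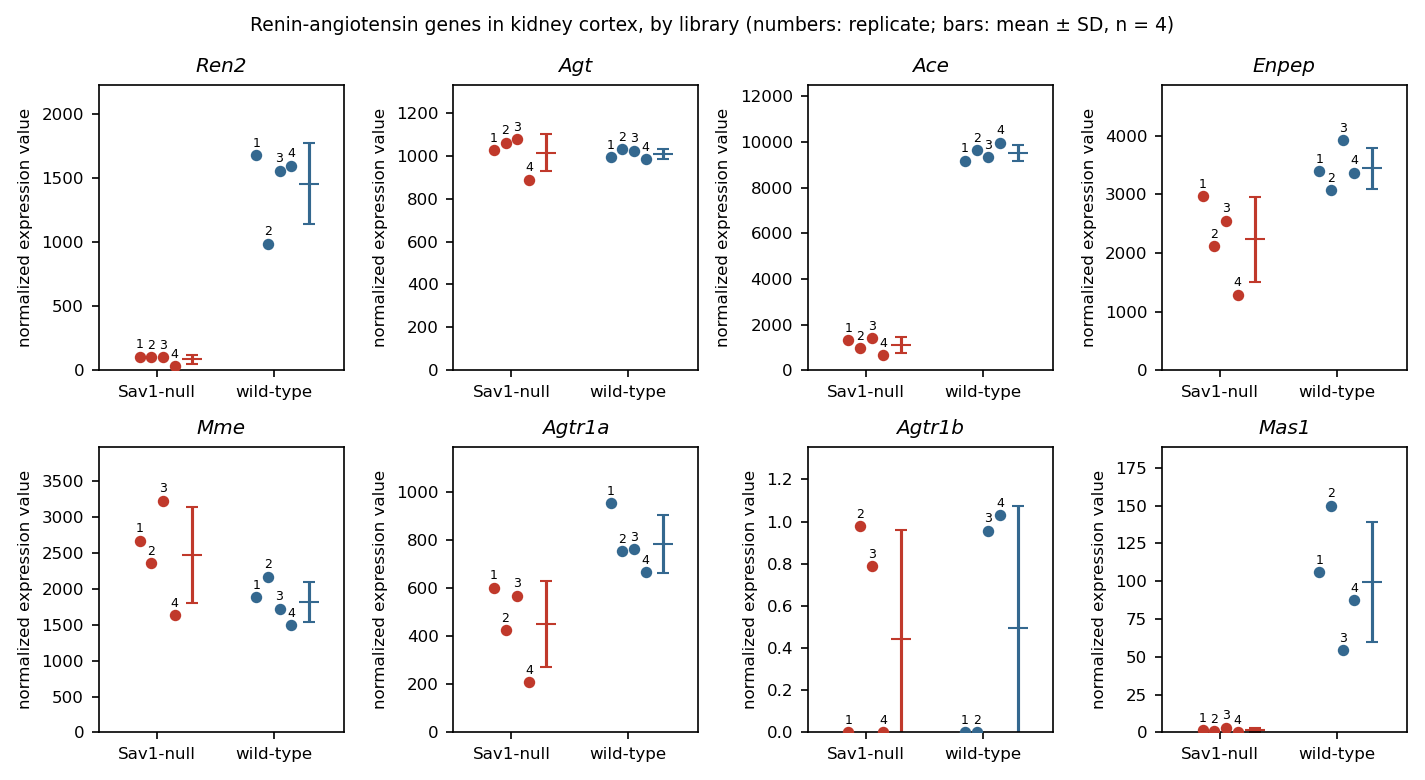
Normalized expression value (y axis, from 0) of the renin row Ren2 and of the 7 members with a row, in the Sav1-null libraries (left, red) and the wild-type libraries (right, blue). Points are libraries with their replicate number and bars are means ± SD (n = 4): Ace, Ren2 and Mas1 lie far apart between the groups, Enpep and Agtr1a lie apart by less, Agt and Mme overlap, and Agtr1b is at no more than 1.03.

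Ace fell 9.12-fold, with groups that lay far apart. Angiotensin converting enzyme, its product, sits on endothelium and on the brush border of the proximal tubule. Values were 1328, 962, 1409 and 657 in the Sav1-null libraries, against 9183, 9628, 9342 and 9967 in the wild-type libraries. Sav1-null libraries held 11.4% of the wild-type level on average. On the log2 scale the difference was -3.19 ± 0.21 (SE, limma adjusted p = 2.70e-06), between -3.41 and -2.81 in the 17 alternatives. Variation among libraries was larger in the Sav1-null group, with a coefficient of variation of 31.9%, against 3.62% in the wild-type group.

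The windows before Ace and Mas1, the members that differed most in level, are shown for comparison with that of Agt. For Ace the upstream start is given, the one used in somatic tissue (GRCm38.p6, chr11:105967698-105967997, plus strand). A second annotated start inside the gene belongs to the testis form, and the gene value does not separate them. Capitals mark TTTATA, the core of a TATA box on the other strand, at -31 to -26.
Ace promoter: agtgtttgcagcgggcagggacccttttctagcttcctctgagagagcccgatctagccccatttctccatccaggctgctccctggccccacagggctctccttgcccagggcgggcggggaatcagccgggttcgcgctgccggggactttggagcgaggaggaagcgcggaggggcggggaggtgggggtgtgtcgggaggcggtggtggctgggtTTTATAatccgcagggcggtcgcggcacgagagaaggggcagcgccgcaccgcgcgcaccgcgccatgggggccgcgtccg
For Mas1 (GRCm38.p6, chr17:12868094-12868393, minus strand) capitals mark the letters GGAATG or their reverse complement, the core bound by TEAD proteins, the DNA-binding partners of YAP. They stand at -72 to -67, at -21 to -16 and at -9 to -4.
Mas1 promoter: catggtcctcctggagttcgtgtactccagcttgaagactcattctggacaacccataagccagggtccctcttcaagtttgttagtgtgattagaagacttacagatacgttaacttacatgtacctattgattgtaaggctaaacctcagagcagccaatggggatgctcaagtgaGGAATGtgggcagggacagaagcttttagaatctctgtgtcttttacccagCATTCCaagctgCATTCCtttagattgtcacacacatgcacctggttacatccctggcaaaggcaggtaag
At least 1 copy of GGAATG was found in 14.7% of the 32851 windows and at least 3 copies in 0.131%. The cut of 3 copies equals the number in the Mas1 window, which was shown for its difference in level, so that share is no test. Palindromic estrogen and androgen response elements with a spacer of 3 bases were searched too, were in none of the members' windows, and were in 0.0700% and 0.00913% of all windows. The STAT motif was also in a window of Mme (-166 to -158) and of Enpep (-141 to -133), and GGAATG in the second window of Mme (-232 to -227).

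Enpep, the gene of aminopeptidase A, which converts angiotensin II to angiotensin III, fell 1.61-fold. Its values were 2974, 2116, 2554 and 1289 in the Sav1-null libraries, against 3392, 3079, 3932 and 3370 in the wild-type libraries. The groups did not overlap, with Sav1-null replicate 1 just below wild-type replicate 2. The log2 fold change was -0.68 ± 0.23 (SE, limma adjusted p = 0.0223). It no longer passed when wild-type replicate 3 was left out (adjusted p = 0.0601), under quantile normalization (0.104) or when library totals were set equal (-0.30, adjusted p = 0.219).

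Mme encodes neprilysin, a brush border endopeptidase that makes angiotensin-(1-7) from angiotensin I and degrades natriuretic peptides. It was at 2672, 2355, 3231 and 1632 in the Sav1-null libraries, against 1886, 2171, 1724 and 1497 in the wild-type libraries. Replicates 1, 2 and 3 of the Sav1-null group were above every wild-type library, and replicate 4 lay within the wild-type range. The log2 fold change of 0.41 ± 0.20 (SE) did not pass the test (limma adjusted p = 0.0906). Without Sav1-null replicate 4 it was 0.60 and passed (limma adjusted p = 0.00368), as it did under quantile normalization (0.56, adjusted p = 0.0323) and when library totals were set equal (0.80, adjusted p = 0.00315). Within a library, a scale factor shared by all genes has no effect on a ratio, although quantile normalization can change it. As deposited, the ratio of Mme to Enpep was 0.898, 1.11, 1.27 and 1.27 in the Sav1-null group, against 0.556, 0.705, 0.439 and 0.444 in the wild-type group. The difference was 1.10 on the log2 scale (two-sided exact permutation p = 0.0286, the smallest that 4 libraries against 4 allow). Adjustment over the 2 ratios tested left this p at 0.0286. The other ratio, Ren2 to Agt, was formed after seeing the data and had the same p, so the adjustment gives no protection.

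**Figure D2:**
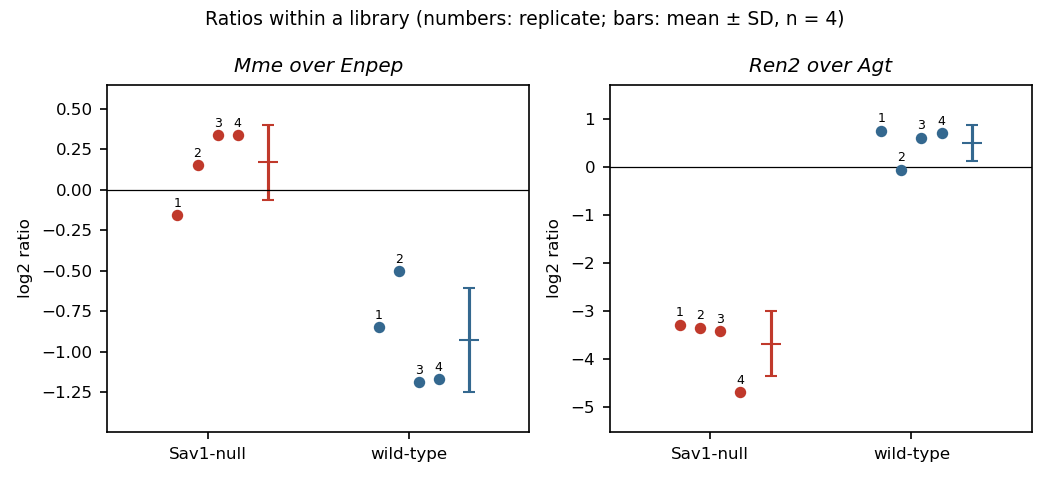
Log2 ratio of Mme to Enpep and of Ren2 to Agt within each library (y axis), in Sav1-null libraries (left, red) and wild-type libraries (right, blue), with replicate numbers and mean ± SD (n = 4). The groups overlap in neither panel: Mme over Enpep averages 0.17 in the Sav1-null and -0.93 in the wild-type group, and Ren2 over Agt -3.68 in the Sav1-null and 0.50 in the wild-type group.

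Of the receptors, Agtr1a fell 1.86-fold. The type 1a receptor carries most angiotensin II signalling in the mouse kidney. Its values were 604, 425, 570 and 209 in the Sav1-null libraries, against 955, 756, 764 and 668 in the wild-type libraries. The groups did not overlap. The log2 fold change was -0.90 ± 0.30 (SE, limma adjusted p = 0.0244), and -0.56 without Sav1-null replicate 4 (adjusted p = 0.00731). Agtr1a no longer passed when wild-type replicate 1 was left out (-0.80, adjusted p = 0.0659) and with equal library totals (-0.51, adjusted p = 0.128).

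Agtr1b, the second type 1 receptor gene of rodents, was at the limit of detection, with 0 or 1 read in each of the 8 libraries. It was below the filter and not tested, and no fold is given. The longest open reading frames of Agtr1a and Agtr1b, taken from GENCODE M21 transcripts, had 1080 bases each and were identical at 90.8% of them, so reads shared by both copies were divided between them by an estimate. Agtr2, the type 2 receptor gene, had 1 to 4 reads in each Sav1-null library and 0 to 4 in each wild-type library and was not tested.

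Mas1, the gene of the receptor described for angiotensin-(1-7), was nearly absent from the Sav1-null libraries. Its values were 1.56, 0.978, 3.16 and 0, from 0 to 4 reads, in the Sav1-null libraries, against 106, 150, 54.5 and 87.6, from 57 to 179 reads, in the wild-type libraries. On average Sav1-null libraries held 1.43% of the wild-type level. Mas1 passed the filter through the wild-type group alone, so its difference is a description and no p is given. On the log2 scale it was -5.46, and it depends on the pseudocount at so low a level, at -5.93 with 0.5 and -3.19 with 10.

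Over the 5 members with a mean above the filter in both groups, 0 were called higher and 3 lower (Ace, Agtr1a and Enpep), beside 43.9% and 25.2% of all tested genes, and the median log2 fold change was -0.68, beside 0.23 over all tested genes. Without Sav1-null replicate 4, 1 was higher (Mme) and 3 were lower, with a median of -0.44. With equal library totals 2 were higher (Agt and Mme) and Ace was lower. By median-of-ratios Agt was called lower as well. By quantile normalization Mme was called higher and Enpep was not called.

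**Figure D3:**
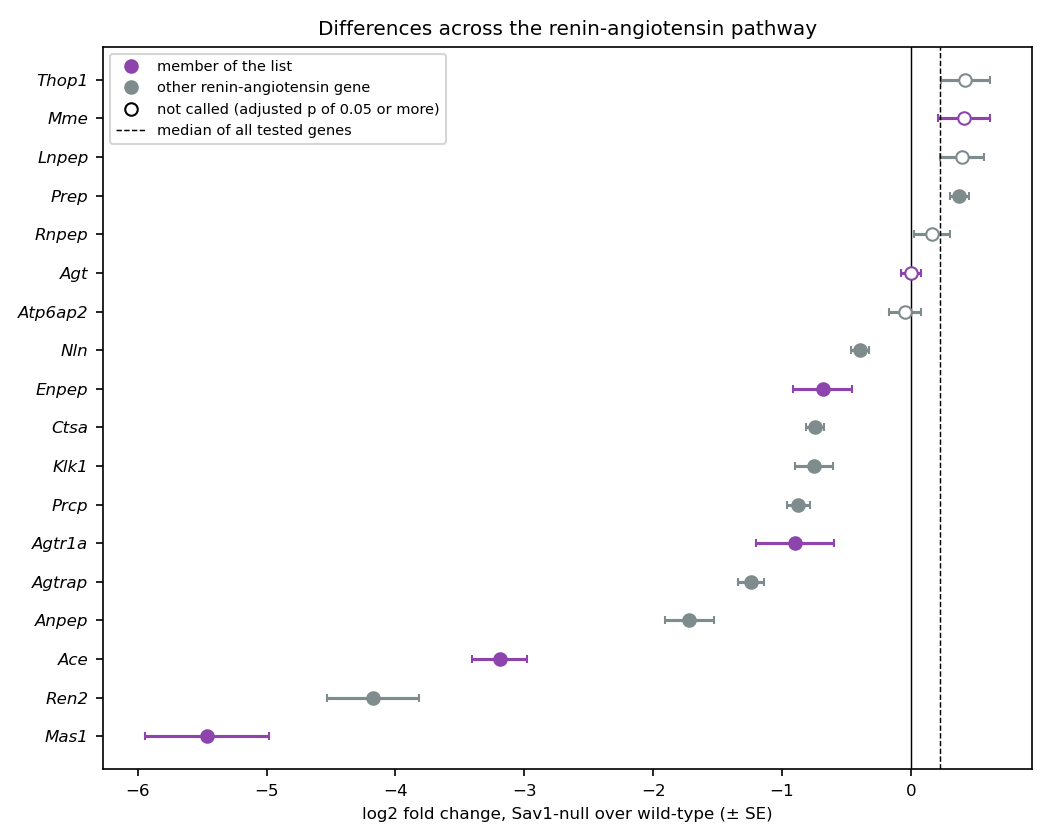
Log2 fold change, Sav1-null over wild-type, with SE (x axis) for the 6 tested members (purple) and the 12 tested genes of the rest of the pathway (grey), ordered by value. Filled points were called by limma, open points were not, and the dashed line is the median of all tested genes at 0.23. Most called genes of the pathway lie left of 0. Mas1, at -5.46, is filled too, but it passed the filter through the wild-type group alone. Its direction was thus fixed by the filter, and its point is a description only.

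Set per kilobase of the longest coding transcript in GENCODE M21, which allows levels of different genes to be compared, the order of the members differed between the groups. In the Sav1-null group Agt (536 ± 45.8 per kb, SD) and Enpep (534 ± 172) came first, then Mme (308 ± 83.0), Ace (222 ± 70.8) and Agtr1a (205 ± 81.7), and the library ranges of neighbours in this order overlapped. Mas1 stood apart at 0.593 ± 0.552. Wild-type libraries had Ace first by a wide margin (1943 ± 70.2 per kb), then Enpep (824 ± 85.1), Agt (533 ± 11.7), Agtr1a (357 ± 55.0), Mme (226 ± 35.3) and Mas1 (41.5 ± 16.6), and no library ranges of neighbours overlapped. Ace thus stood first of the members in wild-type libraries and behind Agt, Enpep and Mme in Sav1-null libraries. The transcript length of Mme (8.04 kb) includes a long untranslated end, and the lengths come from another annotation than the authors used.

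The rest of the pathway was read from a list of 17 further genes, of which 12 were tested, 1 was higher and 7 were lower in the Sav1-null group (median log2 fold change -0.57), beside 43.9% and 25.2% of all tested genes and their median of 0.23. With equal library totals 5 were higher and 6 lower. Anpep, the gene of aminopeptidase N, which acts after aminopeptidase A to turn angiotensin III into angiotensin IV, fell 3.29-fold, to 2443, 2096, 2595 and 1320 in the Sav1-null libraries, against 6570, 7360, 6476 and 6590 in the wild-type libraries (limma adjusted p = 4.15e-05). Agtrap, which encodes a protein that binds the type 1 receptor and promotes its internalization, fell 2.37-fold (1631 ± 153 in Sav1-null against 3867 ± 427 in wild-type libraries, SD, n = 4 each; limma adjusted p = 7.37e-06). Groups did not overlap for either gene.

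Carboxypeptidases and kallikrein were lower by less. Prcp, a lysosomal carboxypeptidase that also acts on angiotensin II, fell 1.83-fold and Ctsa, which encodes cathepsin A, 1.68-fold (limma adjusted p = 2.40e-05 and 1.96e-05). The call for Ctsa was lost after quantile normalization (-0.19, adjusted p = 0.0516). Klk1, the tissue kallikrein gene of the distal nephron, was at 23535 ± 3900 in Sav1-null and 39181 ± 1796 in wild-type libraries (SD, n = 4 each), 1.68-fold lower (limma adjusted p = 0.00131), although quantile normalization turned its log2 fold change to 0.20 (adjusted p = 0.218).

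Among the endopeptidases that can form angiotensin-(1-7), Nln, the neurolysin gene, fell 1.31-fold (limma adjusted p = 0.000663, 0.888 with equal library totals). Prep, the prolyl endopeptidase gene, was the only tested gene of the list to be called higher as deposited, at 1.30-fold (818 ± 17.8 in Sav1-null against 631 ± 47.4 in wild-type libraries; limma adjusted p = 0.00172). That call was lost after median-of-ratios rescaling (0.15, adjusted p = 0.138). Thop1, the thimet oligopeptidase gene, had a log2 fold change of 0.42 that did not pass (adjusted p = 0.0734) but did without wild-type replicate 3 (0.52, adjusted p = 0.0488) or Sav1-null replicate 3 (0.52, adjusted p = 0.0454) and with equal library totals (0.80, adjusted p = 0.00428).

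3 further genes of the list did not pass. Lnpep, which encodes the angiotensin IV binding aminopeptidase IRAP, had a log2 fold change of 0.40 (limma adjusted p = 0.0639), or 0.58 without Sav1-null replicate 4 (0.000136) and 0.78 with equal library totals (0.00133). Atp6ap2, the prorenin receptor gene, was at 2929 ± 479 in Sav1-null and 2999 ± 204 in wild-type libraries (SD, n = 4 each; limma adjusted p = 0.746), and its log2 fold change of -0.05 turned to 0.34 with equal library totals (0.0208), 0.19 by quantile normalization (0.211) and 0.08 without Sav1-null replicate 4 (0.341). Rnpep, the aminopeptidase B gene, had a log2 fold change of 0.16 (adjusted p = 0.315), which was 0.55 with equal library totals (0.00813) and -0.06 by median-of-ratios (0.723). The mast cell and neutrophil proteases that can make angiotensin II outside the classical route had next to no reads: Cma1 had 0 in the Sav1-null and 1 in the wild-type libraries together, Cpa3 likewise 0 and 1, and Ctsg 0 in both. Mrgprd, a receptor described for alamandine, had 1 read in the Sav1-null libraries and 0 in the wild-type libraries.

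Sav1-null replicate 4 stood low for the members. It was the lowest library of its group for all 6 tested members, whereas this was so for 42.8% of all tested genes, and for 8 of the 12 other tested genes of the pathway. For Ctsa, Prep, Thop1 and Rnpep it was the highest library of its group. Against the mean of Sav1-null replicates 1 to 3 it held 84.1% for Agt, 59.3% for Mme, 53.3% for Ace, 50.6% for Enpep, 39.2% for Agtr1a and 32.5% for Ren2. The summed values of proximal tubule, endothelial and mural marker lists were low in it too, and those of injured tubule and leukocyte lists were not. The summed value of 14 proximal tubule markers was 66192 in Sav1-null replicate 4, against 145876, 115307 and 173114 in replicates 1, 2 and 3. For 12 endothelial markers the sum was 2471 in that library, against 5067, 4533 and 4707, and for 12 mural and mesangial markers 2714, against 4590, 4660 and 4441. Injured tubule markers summed to 603551 in it, against 600337, 849673 and 531814, and leukocyte markers to 6217, against 5551, 7445 and 5359. Single genes of the injured tubule and leukocyte lists went both ways in that library, so these sums do not speak for each gene. Spp1 was at 328005, against 469068, 687852 and 403793, and Clu at 196780, against 79050, 107488 and 83208. Itgam was at 219, against 290, 382 and 280, and C1qa at 1883, against 1264, 1457 and 1201. The part the marker lists have in the values of the members was not tested.

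**Figure D4:**
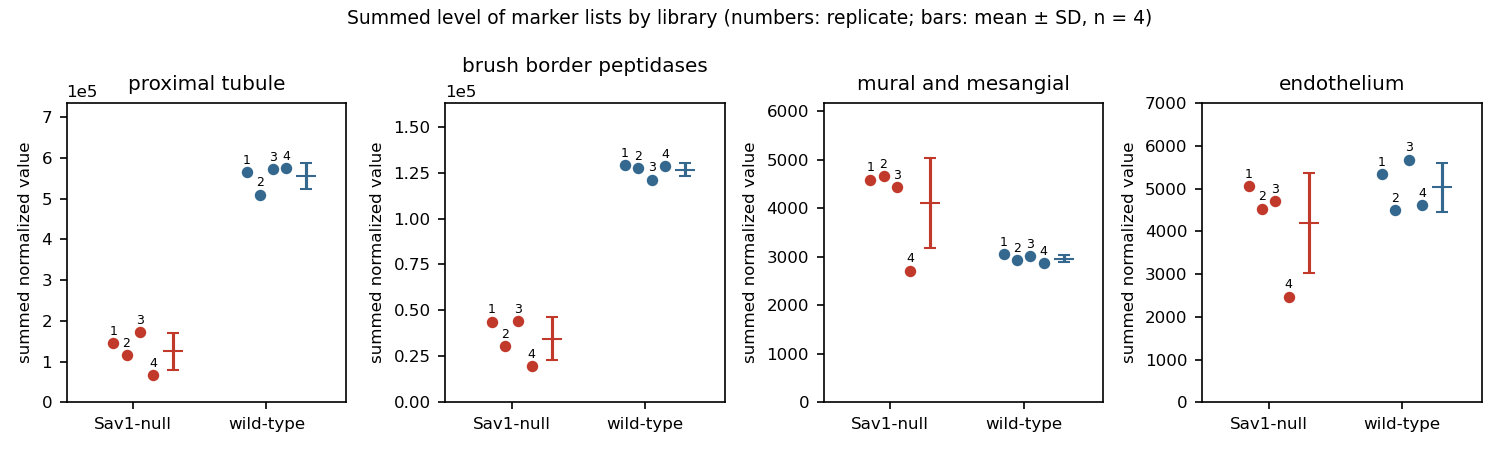
Summed normalized expression value (y axis, from 0) of marker lists for proximal tubule (14 genes), brush border peptidases (10), mural and mesangial cells (12) and endothelium (12), in Sav1-null libraries (left, red) and wild-type libraries (right, blue), with replicate numbers and mean ± SD (n = 4). The tubule and peptidase sums lie far lower in the Sav1-null group, the endothelial sums overlap, and Sav1-null replicate 4 is the lowest of its group in every panel.

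Between the groups, proximal tubule markers summed to 66192 to 173114 in Sav1-null and 509464 to 575607 in wild-type libraries. Of these 12 of 14 were called lower and 0 higher (median log2 fold change -2.03), beside 25.2% and 43.9% of all tested genes. The urate transporter gene Slc22a12 fell 8.65-fold and the organic anion transporter gene Slc22a6 7.78-fold (limma adjusted p = 2.07e-06 and 7.20e-06). Of 10 brush border peptidases, a list that includes Anpep, 7 were lower and 0 higher (median -1.81), beside the same shares of all tested genes. Among the lower ones were the gamma-glutamyltransferase gene Ggt1 (4.76-fold) and the dipeptidase gene Dpep1 (11.6-fold), with limma adjusted p = 4.65e-06 and 3.92e-05. The fall of Ace lay near those of Slc22a12 and Slc22a6, which were named for their small p, and beyond the median of the proximal tubule list. Called genes of that list lay between -3.23 (Slc5a2) and -0.95 (Cubn), and 2 of 14 were not called. Agt, Mme and Enpep, which the proximal tubule also makes, had log2 fold changes between -0.68 and 0.41. The difference between Ace and these genes was not tested.

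Markers of the cells that hold renin, receptors and endothelial Ace are given beside these values. Of 12 mural and mesangial markers 6 were higher and 1 lower, beside 43.9% and 25.2% of all tested genes (8 and 1 without Sav1-null replicate 4), with sums of 2714 to 4660 in Sav1-null and 2873 to 3050 in wild-type libraries. Notch3, a receptor of mural cells, was 2.20-fold higher (limma adjusted p = 8.55e-05) and Myh11, the smooth muscle myosin gene, 1.80-fold lower (0.00751, and 0.0661 with equal library totals). Of 12 endothelial markers 0 were higher and 2 (16.7%) lower, beside 43.9% and 25.2% of all tested genes (1 and 2 without Sav1-null replicate 4). The lower ones were Kdr (3.04-fold) and Cldn5 (1.56-fold), with limma adjusted p = 0.00290 and 0.0310. Endothelial sums were 2471 to 5067 in Sav1-null and 4491 to 5682 in wild-type libraries. Cldn5 missed the threshold with equal library totals (adjusted p = 0.296) and without wild-type replicate 1, 3 or 4 or Sav1-null replicate 2 or 4 (0.0521 to 0.0878). Defining markers of adrenal cortex, which lies beside the kidney, were at or near 0. Cyp11b1 and Cyp11b2 were at 0 in all libraries and Cyp11a1 at no more than 2 reads. The sum of that list was 60.0 to 104 in Sav1-null and 78.5 to 122 in wild-type libraries, most of it Akr1b7 and Star. Star, which encodes a cholesterol carrier of steroid-making cells, was at 68.3 ± 9.84 in Sav1-null and 47.9 ± 8.36 in wild-type libraries (SD, n = 4 each; limma adjusted p = 0.0408), with overlapping groups and a call that 10 of 17 alternatives did not keep.

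In the list of renin cell and renin release genes, 7 of 17 tested (41.2%) were higher and 4 (23.5%) lower, shares near the 43.9% and 25.2% of all tested genes (median 0.05; without Sav1-null replicate 4, 8 and 5). Pde3b, a phosphodiesterase gene, was 5.13-fold higher, Ptger4, a prostaglandin E2 receptor gene, 5.70-fold higher and Adcy6, an adenylyl cyclase gene, 1.99-fold higher (limma adjusted p between 3.91e-07 and 8.26e-06). Nr1h3, which encodes the liver X receptor alpha, a regulator of renin transcription in the mouse, was 2.17-fold lower (3.67e-05). These genes are also expressed outside renin cells.

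Of 11 regulators of Agt transcription, 4 (36.4%) were higher and 4 (36.4%) lower (median -0.11), beside 43.9% and 25.2% of all tested genes. Beside the rise of Stat3, the NF-kappa B subunit genes Nfkb1 (log2 fold change 1.58, limma adjusted p = 2.64e-06) and Rela (1.28, 2.46e-05) were higher. Hnf4a, a hepatocyte nuclear factor of the proximal tubule, fell 2.31-fold (limma adjusted p = 0.000150), and Esr1, the estrogen receptor alpha gene, fell 6.84-fold (3.52e-06).

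Genes known to respond to angiotensin II or aldosterone in other settings were mostly higher, with 13 of 15 called higher and 2 lower. Their median log2 fold change was 1.77. Over all tested genes 43.9% were higher and 25.2% lower, with a median of 0.23. Edn1, the endothelin 1 gene, rose 39.0-fold, Spp1, the osteopontin gene, 26.8-fold, and Rgs2, a brake on Gq signalling, 2.32-fold (limma adjusted p between 2.54e-07 and 7.20e-06). Cyba, a subunit gene of NADPH oxidase, fell 2.06-fold (2.86e-05). The mineralocorticoid receptor gene Nr3c2 rose to 335 ± 26.4 in Sav1-null libraries, against 204 ± 10.7 in wild-type libraries (SD, n = 4 each; limma adjusted p = 0.000169). Hsd11b2, which shields that receptor from glucocorticoids, was at 11094 ± 3736 in Sav1-null and 4229 ± 376 in wild-type libraries (limma adjusted p = 0.000241). These genes respond to many signals, and injury and leukocyte markers moved with them. Of the injured tubule markers 11 of 11 were higher, and of the tested leukocyte markers 8 of 8, beside 43.9% of all tested genes. The leukocyte marker Cd3e passed the filter through the Sav1-null group alone, so its direction was fixed by the filter. Sums were 531814 to 849673 in Sav1-null against 19864 to 41523 in wild-type libraries for the injury list, which also holds Spp1. For the leukocyte list they were 5359 to 7445 against 907 to 1649. The complement gene C1qa rose 9.07-fold, the integrin gene Itgam 18.7-fold and the lysosomal macrophage gene Cd68 10.5-fold. Their part in the result was not tested.

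Sex-biased genes of the kidney differed as well. All 8 male-biased genes were lower in the Sav1-null group (median log2 fold change -6.62), among them the cytochrome gene Cyp2j13, the organic anion transporter gene Slco1a1 and the amino acid transporter gene Slc7a13, at -5.84, -12.61 and -11.35. Of 6 female-biased genes 5 were higher and 1 lower, with the export pump gene Abcc3 at 6.03 and the cytochrome gene Cyp4a14 at 6.46, against the organic anion transporter gene Slc22a7 at -5.01. Slc22a7 had 3 reads in Sav1-null replicate 4 and lay at -3.41 without that library, at -5.73 without Sav1-null replicate 1 and at -6.06 without replicate 3. Slco1a1, Slc7a13, Abcc3 and Slc7a12, a further female-biased gene called higher, passed the filter through 1 group alone. Of all tested genes 43.9% were higher and 25.2% lower. The share of sex in the values of Ace, Ren2 or Mas1 cannot be told apart from that of genotype and treatment.

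The profile over the 8 libraries placed each member beside genes of like size and direction of change. The measure was the root mean square difference of log2 values centred on their mean, over tested genes with a mean of at least 50. Proc and Myom3 were closest to Ace (0.095 and 0.089 log2 units), Itgb8 and Maf to Agtr1a (0.091 and 0.115), and Tm4sf1 and Lin52 to Enpep (0.086 and 0.092). Slc6a18 was close to Mme (0.103), and Lman1 and Chmp5 to Agt (0.038 and 0.040). Mas1 and Ren2 had no gene as near, with Slco1a4 (0.266) and Hsd11b1 (0.308) closest to Mas1 and Acy3 (0.268) and Aspdh (0.292) to Ren2.

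Scaling changed the calls of members with small differences and kept those of Ace and Ren2. Relative to the median of all tested genes, Ace lay at -3.42 as deposited, -3.42 by median-of-ratios, -2.92 by quantile normalization and -3.42 by equal totals. In the same order Agtr1a lay at -1.13, -1.13, -1.05 and -1.13, Enpep at -0.91, -0.91, -0.45 and -0.92, and Mme at 0.18, 0.18, 0.59 and 0.18. Quantile normalization, which reshapes each library and does not only shift it, was the setting in which Agt, Ace, Enpep and Mme departed from the other settings.

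**Figure D5:**
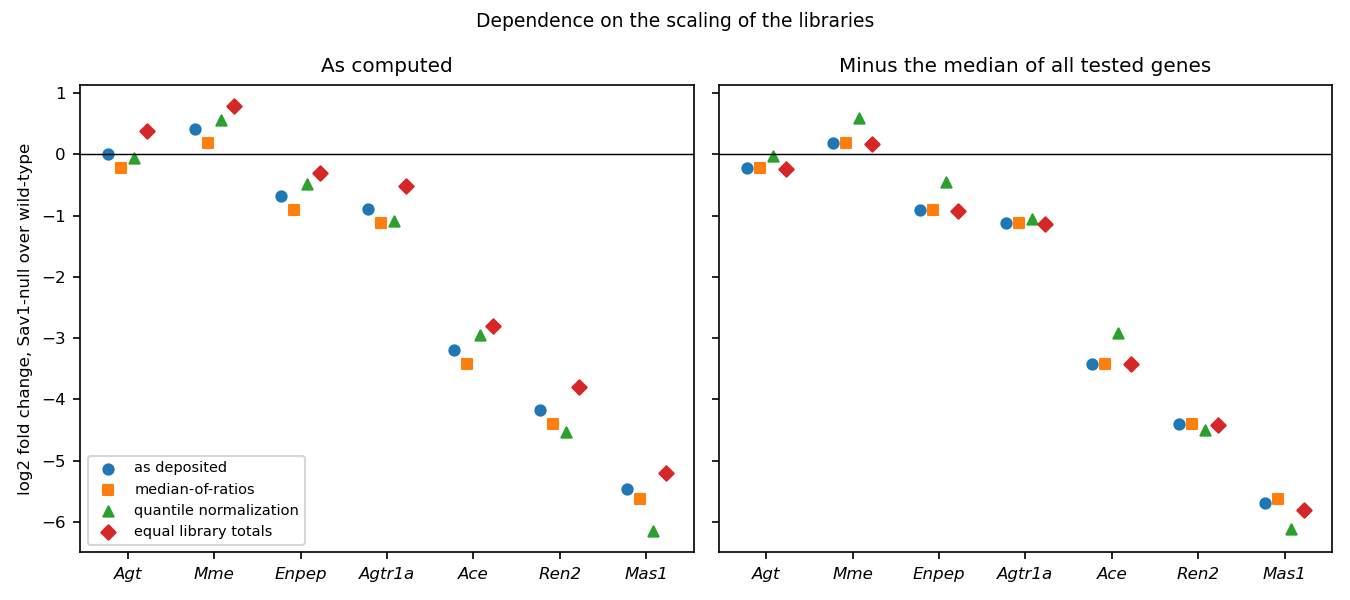
Log2 fold change, Sav1-null over wild-type (y axis), of the 6 tested members and Ren2 under 4 scalings of the libraries (marker shapes), as computed (left panel) and after subtracting the median of all tested genes (right panel). Agt crosses 0 in the left panel, from -0.22 to 0.39, and Ace, Ren2 and Mas1 stay at -2.81 or below in both panels.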

How the data were processed

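Messenger RNA of kidney cortex was sequenced in 8 libraries, 4 per group, grouped by their titles. The deposited table held 1 normalized signal value per gene and library, made by the authors with RSEM. Mouse genome build mm9 and the tools RSEM, SAMtools and Picard 1.64 are named in the submitters' processing notes. Aligner, annotation and strand setting: not given in the sources used here. In the deposited values the 75th percentile of values above 0 was 999 or 1000 in each library. Low values fell on steps taken as 1 read, and 92.7% to 93.3% of values below 400 lay within 0.02 read of a whole multiple, too few for a count model. Intervals of counting error were not needed, and read numbers cover counting error only.

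Genes with a mean of at least 10 (13677, removing 8028) were compared on log2(value + 1) with limma 3.58.1 in R 4.3.3, with a prior spread that follows mean level, Benjamini-Hochberg adjustment and 6 residual degrees of freedom. Fold changes are antilogs of log2 differences on that scale, which understates changes of low genes. Single ratios were tested with two-sided exact permutation over 70 assignments. The step was tested on simulated data with far fewer changed genes than the 69.1% called here, all with a mean of at least 50. Of 50 genes each lowered or raised by 1 log2 unit, 44 and 39 were recovered, and 14 false calls were made among 13057 tested genes. Recovery of genes at lower levels was not tested. The members and lists were chosen with earlier results of these data known. Named were all members, the 17 further pathway genes, and from each other list up to 3 called genes with the smallest p in its main direction and 1 against it, with Sav1, Stat3 and the 2 nearest profiles of each member. Gja5, Hnf4a, Nr3c2, Hsd11b2, Cyp11a1, Cyp11b1 and Cyp11b2 were chosen after their values were seen. Akr1b7 came by the rule from the adrenal cortex list, and its use as a renin cell gene lay outside the rule. The planned ratio of Ren1 to Agt was replaced by Ren2 to Agt after seeing the data, and that of Agtr1a to Agtr1b was not formed, since Agtr1b had at most 1 read in a library. Some listed genes, a profile neighbour and a planned ratio are not reported here. Promoter windows came from RefSeq (GRCm38.p6), where 7 of the 8 members had one, and transcript lengths from GENCODE M21. Alternatives were pseudocounts of 0.5 and 10, no filter and a mean of at least 50, 3 other scalings, no intensity trend, a replicate block, and leaving out each library.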

Additional observations from a re-analysis of the deposited data

Results flagged for a closer look

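3 values stood apart from the other libraries of their group, among 40 groups of 4 checked, where chance flags about 1 in 20. Ren2 in Sav1-null replicate 4 was at 33.5, against 100 to 105 in the other Sav1-null libraries. The log2 ratio of Ren2 to Agt was -4.69 in the same library, and -3.41 to -3.28 in the other Sav1-null libraries. Anpep was at 7360 in wild-type replicate 2, and between 6476 and 6590 in the other wild-type libraries.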

How the results depend on the processing

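Ace, Ren2, Anpep, Prcp and Agtrap kept their direction and their call in all 17 alternatives, of which 8 left out a library. The number of members called higher was 0 as deposited, 1 after quantile normalization, 2 with equal library totals, 1 with the replicate block and 0 to 1 when a library was left out. For the number called lower, Mas1 is counted although it passed the filter through 1 group alone. It was 4 as deposited, 5 by median-of-ratios, 3 by quantile normalization, 2 with equal totals and 3 to 4 when a library was left out. Among the other pathway genes 1 was higher as deposited, 0 after median-of-ratios rescaling, 5 with equal totals and 1 to 2 when a library was left out. Over all genes 3452 were lower as deposited and 1946 with equal totals. Of calls, 63.5% were higher as deposited, 49.7% by median-of-ratios, 48.2% by quantile normalization and 81.8% by equal totals. Values that turned direction where a call was made in either setting were those of Agt (-0.22, median-of-ratios), Atp6ap2 (0.34, equal totals), Klk1 (0.20, quantile) and Star (-0.44, quantile, against 0.51 as deposited) and the cause was not tested. Without a call in either setting, Atp6ap2 turned to 0.19 (quantile) and 0.08 (without Sav1-null replicate 4), Rnpep to -0.06 (median-of-ratios), and Agt, near 0 as deposited, in 6 further alternatives. Same-numbered libraries deviated together with r = 0.144, 0.0762, -0.169 and 0.135, so the numbers were not taken as pairs, and not every library correlated best with its own number. With the replicate block Mme passed (adjusted p = 0.0400), 5927 genes were higher and 3391 lower, and the paired ratios (1.10 for Mme over Enpep, -4.18 for Ren2 over Agt) had an exact p of 0.125, the smallest that 4 pairs allow. Depth limits Agtr1b, Agtr2 and Sav1-null Mas1, at 4 reads or fewer in a library.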
